A study of Mus musculus with 6 samples.

Results

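The 30 genes described here encode enzymes that build cholesterol and fatty acids, together with the SREBP system that regulates them. Stard4, which carries sterols between membranes, is also among them and was grouped with the regulators. The 30 genes were taken by symbol from the 55377 genes of the count table, where each stood on exactly 1 row. They were sorted by role into a mevalonate arm of 6 genes, a sterol arm of 11, a fatty acid arm of 7 and 6 regulators. The data are bulk RNA sequencing of mouse articular chondrocytes, the cells of joint cartilage, kept in primary culture. One group of 3 libraries received a control siRNA (siNC) and the other group of 3 received an siRNA against Irf1 (siIRF1), which encodes interferon regulatory factor 1, and RNA was taken 36 h after transfection. The sources used here do not state strain, age, number of animals or the siRNA sequences, and nothing says that the 3 libraries of a group came from separate cultures or animals. The p-values therefore measure only the spread between these libraries, which may be technical.

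Cholesterol synthesis starts from acetyl-CoA, which the mevalonate arm turns into isoprenoid diphosphates, and the sterol arm then joins these into squalene, closes the rings and trims lanosterol to cholesterol. Fatty acid synthesis starts from the same acetyl-CoA, which is carboxylated, built into palmitate, elongated and desaturated. Many genes of both routes are targets of the SREBP transcription factors, which are made as precursors in the endoplasmic reticulum membrane. SCAP escorts the precursors to the Golgi for cleavage when sterols are low, and INSIG proteins hold SCAP back when sterols are high. Cartilage has no blood vessels, and its chondrocytes are known to make sterols as well as to take them up.

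The promoter sequences of 5 members are shown with matches to the motifs of SREBPs, of factors known to act beside them and of IRF proteins. They come from RefSeq (GRCm38.p6), whose table of promoters, 250 bases before to 50 bases after each start, held 32 promoters for 24 of the 30 members. Idi1 and Acss2, the genes with the highest and lowest fold change, are shown whole with the CCAAT box of NF-Y in capitals, a factor known to act beside SREBPs. Hmgcs1 is shown around a sterol regulatory element, Insig1 around an E-box and Ebp around an element of the IRF type, each in capitals.
Idi1, chr13:8885356-8885655, plus strand: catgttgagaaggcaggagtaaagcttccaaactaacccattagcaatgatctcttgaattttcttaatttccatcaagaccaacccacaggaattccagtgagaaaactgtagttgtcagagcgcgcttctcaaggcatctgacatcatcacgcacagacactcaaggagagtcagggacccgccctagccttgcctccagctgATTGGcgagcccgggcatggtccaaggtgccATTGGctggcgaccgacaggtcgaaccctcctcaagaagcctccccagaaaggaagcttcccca
Acss2, chr2:155517793-155518092, plus strand: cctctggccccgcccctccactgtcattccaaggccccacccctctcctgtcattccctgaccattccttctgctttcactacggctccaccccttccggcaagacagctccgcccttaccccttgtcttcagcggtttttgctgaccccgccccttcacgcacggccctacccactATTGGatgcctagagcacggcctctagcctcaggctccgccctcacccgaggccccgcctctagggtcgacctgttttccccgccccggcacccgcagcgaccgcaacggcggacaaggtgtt
Hmgcs1, chr13:119690194-119690242, plus strand: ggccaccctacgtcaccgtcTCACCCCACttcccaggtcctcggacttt
Insig1, chr5:28071291-28071336, plus strand: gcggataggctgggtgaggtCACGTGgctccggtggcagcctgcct
Ebp, chrX:8193722-8193762, minus strand: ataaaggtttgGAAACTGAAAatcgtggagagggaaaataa

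All motifs were searched on both strands, so a CCAAT box can read ATTGG as printed. The capitals begin 45 and 14 bases before the start in Idi1, 73 before it in Acss2, 137 in Hmgcs1, 101 in Insig1 and 239 in Ebp. CCAAT stood in 22 of the 32 member promoters (68.8%), from 21 genes, against 37.4% of the 32851 promoters of the same length in the table. The E-box CACGTG stood in 6 member promoters (18.8%, against 7.15% of all), those of Dhcr7, Hsd17b7, Insig1, Sc5d and Scap. The sterol regulatory element TCACNCCAC stood in 1, that of Hmgcs1 (3.12%, against 1.24%), and the IRF element, GAAA and GAAA with NN between them, stood in 1, that of Ebp (3.12%, against 3.44%). A match is a description of letters in this window and not a binding site. Scd1, Scd2, Sqle, Fdps, Fdft1 and Stard4 had no promoter in the source and so were not searched.

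Total counts were 28565096 to 29282494 in the control libraries and 22349142 to 26752065 with Irf1 siRNA, so every knockdown library was shallower, and the 30 members together received 98122 to 130821 counts per library. Irf1 stood at 11.1, 12.6 and 12.2 CPM (counts scaled to library size, TMM-normalised) in the controls and at 5.64, 5.09 and 6.02 CPM with its siRNA, a log2 fold change of -1.105 ± 0.108 (SE, adjusted p = 3.0e-06). The chondrocyte label matched its markers, of which all 10 were tested and 1, Hapln1, changed (log2 fold change -1.04). Col2a1, the main cartilage collagen, stood at 60190 to 82180 CPM. The 10 markers summed to 84620 and 83806 CPM in control replicate 3 and Irf1 siRNA replicate 2, against 100259 to 112926 CPM in the other 4 libraries. Of the 7 adipocyte markers, 2 (Cidec and Cfd) had no count in any library and nearly all of the sum was Fabp4. That sum was 12.5 to 16.0 CPM in the controls and 13.2 to 15.9 CPM with Irf1 siRNA. Macrophage markers summed to 11.1 to 14.2 and 13.1 to 13.8 CPM, with Adgre1 at 0. Cd68 was higher (log2 fold change 0.40, adjusted p = 0.0316), while Lyz2 (-0.69, adjusted p = 0.0566) and Mrc1 (-0.07) were not called. Ptprc and Csf1r had too few counts to be tested. Fibroblast markers summed to 85.1 to 97.3 and 89.6 to 96.5 CPM. Most of that was Pdgfra (means 71.95 and 72.56 CPM), and Dpt, Dpp4 and Pi16 had too few counts to be tested. Thy1 (-0.30) and Cd34 (0.19) were not called. Osteoblast markers summed to 83.3 to 108.8 and 54.2 to 80.2 CPM. The osteoblast sum was mostly Ibsp (57.3 to 84.0 CPM in the controls and 30.02 to 56.4 CPM with the siRNA, not called), while Sp7 had a log2 fold change of -0.01 and Bglap of 1.13, also not called. Skeletal muscle markers summed to 9.3 to 9.5 and 7.4 to 9.0 CPM. Nearly all of that was Acta1 (9.20 to 9.47 and 7.22 to 8.94 CPM, not called), with Myog at 0. Endothelial and mural markers, nearly all Cspg4, summed to 739.1 to 861.4 and 721.7 to 842.3 CPM. Of the rest, Cdh5 had 0 to 4 counts per library, Kdr 3 to 10, Rgs5 5 to 11 and Pecam1 10 to 28. The osteoblast and the skeletal muscle sums did not overlap between groups, and their part in any result here was not tested. Taken gene by gene, 38.1% of all tested genes did not overlap either. In bulk RNA, fewer cells of a type and less RNA per cell cannot be told apart.

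Measured per exon length, the fatty acid arm held the most abundant transcripts of the 30. The desaturase gene Scd2 stood at 352 ± 18.4 RPKM (reads scaled to exon length and library size, SD, n = 3) in the controls, rank 73 of 14655 genes. Its paralog Scd1 followed at 64.3 ± 4.09 RPKM and Acly, which makes cytosolic acetyl-CoA from citrate, at 44.8 ± 0.58 RPKM. Srebf1, the SREBP gene tied mainly to fatty acid synthesis, stood at 42.1 ± 4.69 RPKM, which did not differ from Acly beyond the spread. Hmgcs1, which makes HMG-CoA, led the mevalonate arm with 32.5 ± 2.20 RPKM, and Cyp51, the lanosterol demethylase, led the sterol arm with 30.4 ± 0.40 RPKM. Srebf2, the SREBP gene tied mainly to sterol synthesis, and Fasn, the fatty acid synthase, were level at 23.9 RPKM each. Insig1 and Insig2 also stood within each other's spread, at 19.4 ± 0.79 and 18.9 ± 1.11 RPKM.

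The median control level was 23.9 RPKM in the fatty acid arm, 19.2 among the regulators, 12.2 in the sterol arm and 9.67 in the mevalonate arm. At the low end stood Idi1 with 2.77 ± 0.34 RPKM, Tm7sf2 with 1.16 ± 0.15, Acss2 with 0.63 ± 0.02 and Fdps with 0.54 ± 0.17. The genes with the largest fold changes, described next, were thus among the weakest of the 30 as counted. The Fdps level is in doubt, since its transcript closely matches other annotated genes, as given below. Lengths are the union of all annotated exons, retained introns included, which lowers the RPKM of genes such as Acss2 (10163 bases) and Acaca (17074 bases).

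**Figure D1:**
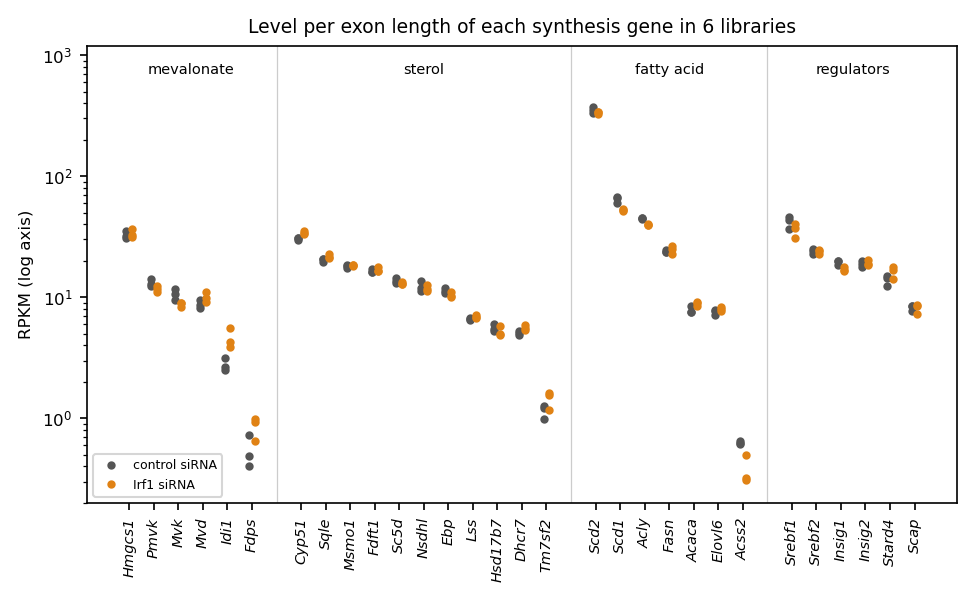
RPKM of each of the 30 genes (log axis) in the 3 control libraries (grey) and the 3 Irf1 siRNA libraries (orange), 1 point per library, ordered by control level within each arm. Scd2 stands above all others at 352 RPKM in the controls, and Fdps and Acss2 are lowest.

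With Irf1 knocked down, the 30 genes did not move as a block: 3 rose, 5 fell and 22 did not pass the test. All 30 were abundant enough to be tested, by edgeR's quasi-likelihood test with Benjamini-Hochberg adjustment over 14683 genes at an adjusted p of 0.05. The 8 called members are 26.7% of the list, against 22.4% of all tested genes. The 3 that rose (Idi1, Fdps and Cyp51) compare with 10.4% of all genes rising, and the 5 that fell (Mvk, Acly, Acss2, Scd1 and Insig1) with 12.0% falling. The values of the controls and of the knockdown libraries did not overlap in 10 members, against 38.1% of all tested genes. The median log2 fold change of the members was 0.03, beside 0.00 over all genes, with 16 members above 0 and 14 below.

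These shares lay near the background, so the count by itself is no result about the list. Idi1, Acss2 and Scd1 were called whichever library was left out. These 3 were the only called members when control replicate 2 or Irf1 siRNA replicate 3 was dropped, and 15.4% and 14.9% of all genes were then called. With control replicate 1 dropped, 5 members were called (4 of the original 8, plus Acaca), beside 17.7% of all genes. With Irf1 siRNA replicate 2 dropped there were also 5 (4 of the 8, plus Acaca), beside 20.7%. With control replicate 3 dropped there were 8 (7 of the 8, plus Srebf1), beside 18.3%. With Irf1 siRNA replicate 1 dropped there were 11 (all 8, plus Tm7sf2, Srebf1 and Stard4), of which 5 rose, beside 18.6%.

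**Figure D2:**
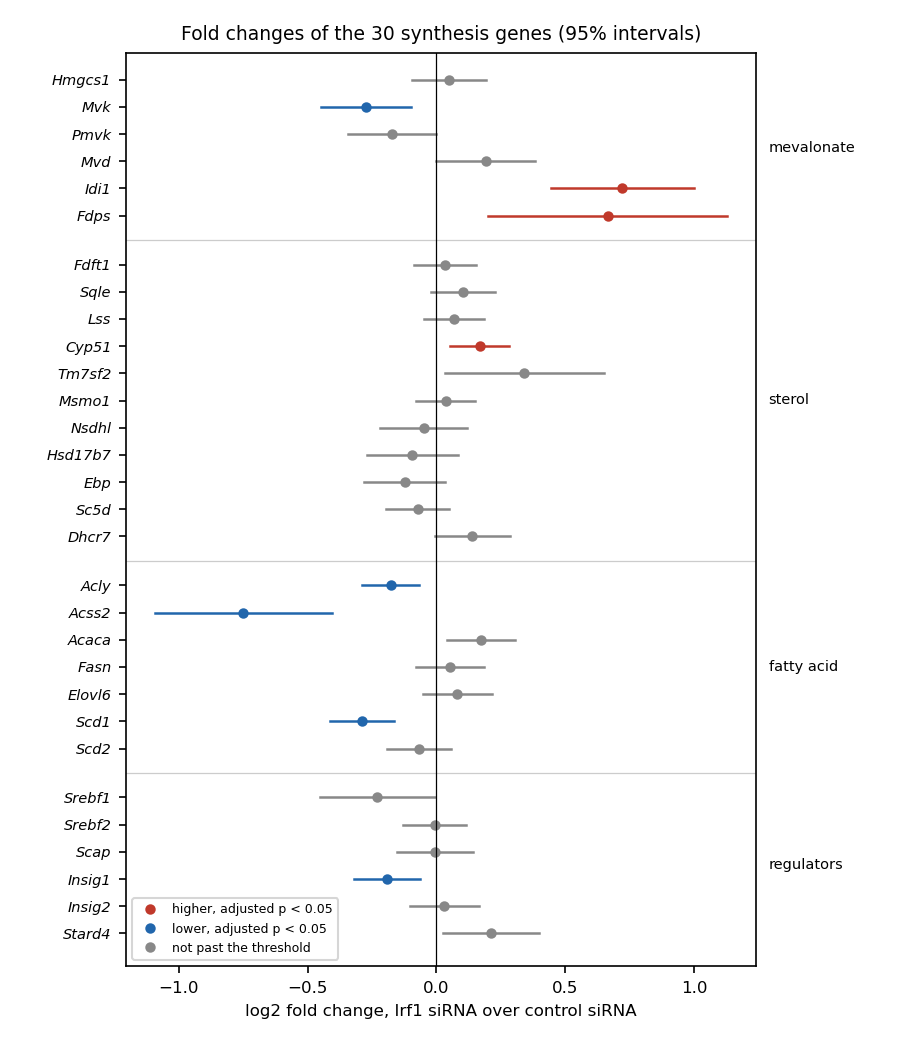
Log2 fold change of each of the 30 genes, Irf1 siRNA over control siRNA, by arm (points, with 95% intervals as lines, n = 3 libraries per group). Red and blue mark the 3 genes that rose and the 5 that fell at an adjusted p under 0.05, and the remaining 22 are grey.

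In the mevalonate arm, the genes of the last steps, Idi1 and Fdps, rose and the kinase gene Mvk fell. Idi1, the isomerase that makes dimethylallyl diphosphate, was at 9.24, 8.87 and 11.1 CPM in the controls and at 15.0, 19.4 and 13.5 CPM with Irf1 siRNA. Every knockdown library was above every control. Idi1 thus rose 1.65-fold (log2 fold change 0.72 ± 0.13 SE, adjusted p = 0.00118), the highest fold change of the 30. Fdps, which makes farnesyl diphosphate, was at 2.07, 1.70 and 3.07 CPM in the controls and at 2.75, 4.18 and 3.89 CPM with the siRNA. Control replicate 3 lay above Irf1 siRNA replicate 1, so the groups overlapped. The fitted rise was 0.66 ± 0.22 on the log2 scale (adjusted p = 0.0396), and it was lost without control replicate 1, control replicate 2, Irf1 siRNA replicate 2 or Irf1 siRNA replicate 3 (adjusted p up to 0.161).

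Both of these counts are uncertain, because the transcripts resemble processed pseudogenes whose reads the counting could split. An Idi1 transcript matched Gm13502 over 684 bases at 100% identity, and that pseudogene had 8 to 32 counts per library against 250 to 534 for Idi1. An Fdps transcript matched Gm3571 over 1062 bases at 98.9% identity, with 25 to 36 counts per library against 48 to 115 for Fdps. It also matched Gm43738, annotated as protein coding, over 929 bases at 100% identity on the same strand, with 0 counts in every library. Gm5873, Gm8163 and Gm7979, further pseudogenes, matched over 605 to 1066 bases and had 0 to 8 counts. Whether Fdps reads were left uncounted was not tested.

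Mvk, mevalonate kinase, moved the other way. It was at 25.4, 31.0 and 28.4 CPM in the controls and at 24.0, 22.2 and 24.1 CPM with the siRNA, without overlap, and the log2 fold change was -0.27 ± 0.08 (adjusted p = 0.0252). The call was lost without control replicate 2, Irf1 siRNA replicate 2 or Irf1 siRNA replicate 3 (adjusted p up to 0.134). Hmgcs1 (log2 fold change 0.05, 95% interval -0.09 to 0.19), Pmvk, the next kinase (-0.17, -0.34 to -0.001), and Mvd, the decarboxylase (0.19, -0.001 to 0.38), did not pass the test. The summed level of the 6 genes was 229 ± 11.6 CPM in the controls and 236 ± 14.0 CPM with Irf1 siRNA (SD, n = 3), with overlapping libraries.

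**Figure D3:**
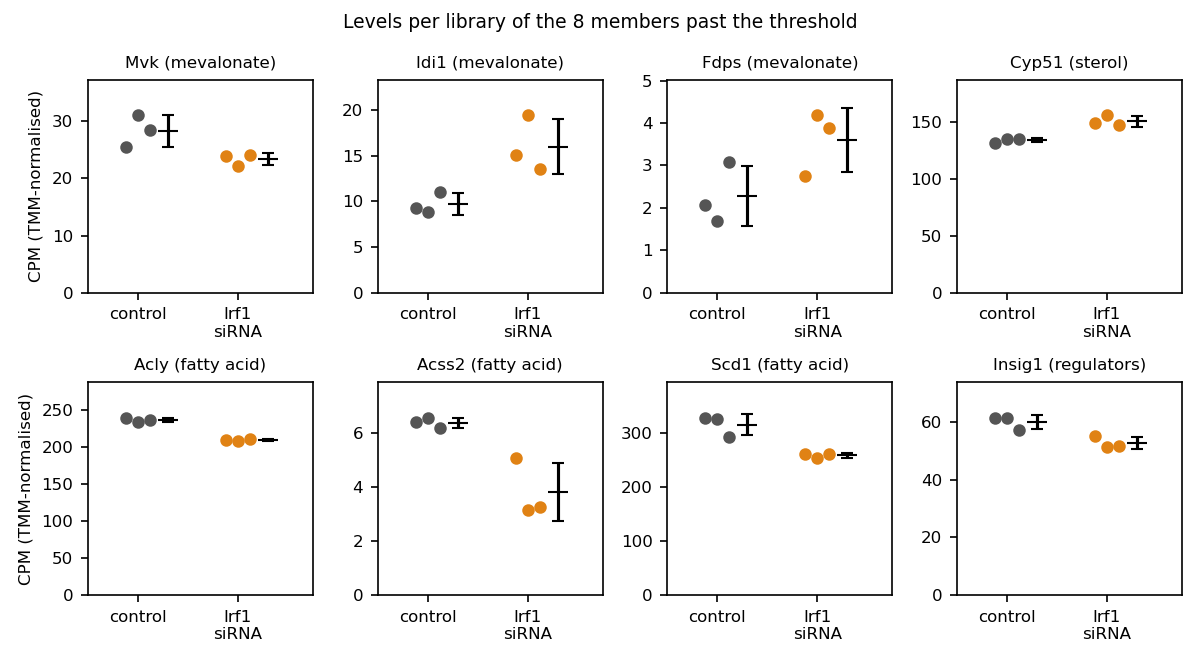
TMM-normalised CPM of the 8 called genes in each of the 3 control (grey) and 3 Irf1 siRNA (orange) libraries, with the group mean and SD as a cross and bar, on axes that start at 0. The groups are apart in all but Fdps, and in 5 of the 8 the knockdown libraries lie lower.

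The sterol arm changed little. Cyp51 was its only called gene (9.09% of the arm, against 22.4% of all tested genes). It was at 132, 135 and 135 CPM in the controls and at 149, 156 and 147 CPM with Irf1 siRNA. The groups did not overlap, and Cyp51 rose by 0.17 ± 0.05 on the log2 scale (1.12-fold, adjusted p = 0.0341). It stayed called only when Irf1 siRNA replicate 1 was the library left out, and otherwise reached adjusted p up to 0.114 as each library was dropped. None of the 11 genes fell by edgeR, against 12.0% of all tested genes. In that direction 0 also passed an unadjusted p of 0.05, and DESeq2 called 0. Cyp51 shares 166 bases with the opposite strand of Akap9, and the sources used here do not state whether counting used strand.

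The other 10 sterol genes lay between -0.12 and 0.34 on the log2 scale, with an arm median of 0.03. Among the early steps, Fdft1, squalene synthase, was at 0.03 (95% interval -0.09 to 0.16), Sqle, squalene epoxidase, at 0.10 (-0.02 to 0.23) and Lss, lanosterol synthase, at 0.07 (-0.05 to 0.19). Sqle, Lss and Dhcr7, the reductase of the last step, did not overlap between groups, with each knockdown library above each control, yet none passed the test. With Cyp51, that made 4 of the 11 sterol genes without overlap, beside 38.1% of all tested genes. Dhcr7 stood at 0.14 (-0.01 to 0.29, adjusted p = 0.166). The demethylation enzymes Msmo1, Nsdhl and Hsd17b7 were at 0.03, -0.05 and -0.09, and the sterol isomerase Ebp and desaturase Sc5d at -0.12 and -0.07. Tm7sf2, a sterol reductase, had the widest interval of the arm (0.34, 0.03 to 0.65, adjusted p = 0.109). It was at 5.32, 5.60 and 4.36 CPM in the controls and at 5.19, 6.90 and 7.17 CPM with the siRNA, so Irf1 siRNA replicate 1 lay among the controls, and without that library the adjusted p was 0.0314.

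Summed over the 11 genes, the sterol arm stood at 680, 690 and 699 CPM in the controls and at 724, 726 and 704 CPM with Irf1 siRNA. The sums did not overlap, but the ratio of the means was only 1.04. Counts of Fdft1 carry a doubt like that of Cyp51, since 774 bases overlap the opposite strand of Ctsb, a gene with 12870 to 15151 counts per library.

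In the fatty acid arm, 3 of the 7 genes were called, all of them lower (42.9%, against 12.0% of all tested genes lower). Acss2 and Acly supply the substrate and Scd1 desaturates the product, which describes 3 genes only. Acss2, which makes acetyl-CoA from acetate, was at 6.38, 6.56 and 6.18 CPM in the controls and at 5.06, 3.16 and 3.25 CPM with Irf1 siRNA. All knockdown libraries were below the controls, replicates 2 and 3 much further than replicate 1. The log2 fold change was -0.75 ± 0.16 (1.68-fold lower, adjusted p = 0.0035), the lowest fold change of the 30. An Acss2 transcript shares 198 bases with the opposite strand of Ggt7, which had 19 to 41 counts per library, so this count carries a strand doubt too. Acly was at 239, 233 and 237 CPM in the controls and at 209, 208 and 211 CPM with the siRNA. The spread within each group was small, and Acly fell by 0.18 ± 0.05 (adjusted p = 0.0225). Dropping control replicate 1, control replicate 2 or Irf1 siRNA replicate 3 ended that call (adjusted p up to 0.0763).

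Scd1, a desaturase that makes oleate, was at 327, 325 and 292 CPM in the controls and at 259, 253 and 260 CPM with Irf1 siRNA. The groups were apart, with a log2 fold change of -0.29 ± 0.06 (adjusted p = 0.00232). Scd2, the more abundant paralog, was at 1922, 2022 and 1821 CPM against 1861, 1794 and 1850 CPM. The groups overlapped, and Scd2 did not pass the test (-0.07, 95% interval -0.19 to 0.06). The ratio of Scd1 to Scd2 was 0.170, 0.161 and 0.160 in the controls and 0.139, 0.141 and 0.141 with Irf1 siRNA. An Scd2 transcript matched Scd1 over 623 bases at 95.5% identity, so the counting could have split reads between them. The lower ratio gave p = 0.1 in an exact two-sided permutation test, the smallest that 3 against 3 libraries allow (0.133 after Benjamini-Hochberg adjustment over 4 ratios chosen with the results known).

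None of the enzymes between those steps passed the test. Acaca, which carboxylates acetyl-CoA in the committed step, was at 145, 129 and 128 CPM in the controls and at 152, 145 and 157 CPM with the siRNA. Control replicate 1 lay just above Irf1 siRNA replicate 2, and the log2 fold change of 0.17 (95% interval 0.04 to 0.31) missed the threshold (adjusted p = 0.0562). Acaca was called without control replicate 1 (adjusted p = 0.0262) and without Irf1 siRNA replicate 2 (0.0369). An Acaca transcript matched the pseudogene Gm5182 over 6118 bases at 99.2% identity, with 112 to 131 counts per library. Fasn was at 0.05 (-0.08 to 0.18) and Elovl6, which elongates palmitate, at 0.08 (-0.05 to 0.22). In this arm edgeR called 0 higher, against 10.4% of all tested genes. At an unadjusted p under 0.05, 1 gene (Acaca) was higher, and DESeq2 called 0. The summed arm went from 2924 ± 118 to 2779 ± 63.4 CPM, with overlapping libraries and with Scd2 as most of the sum.

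**Figure D4:**
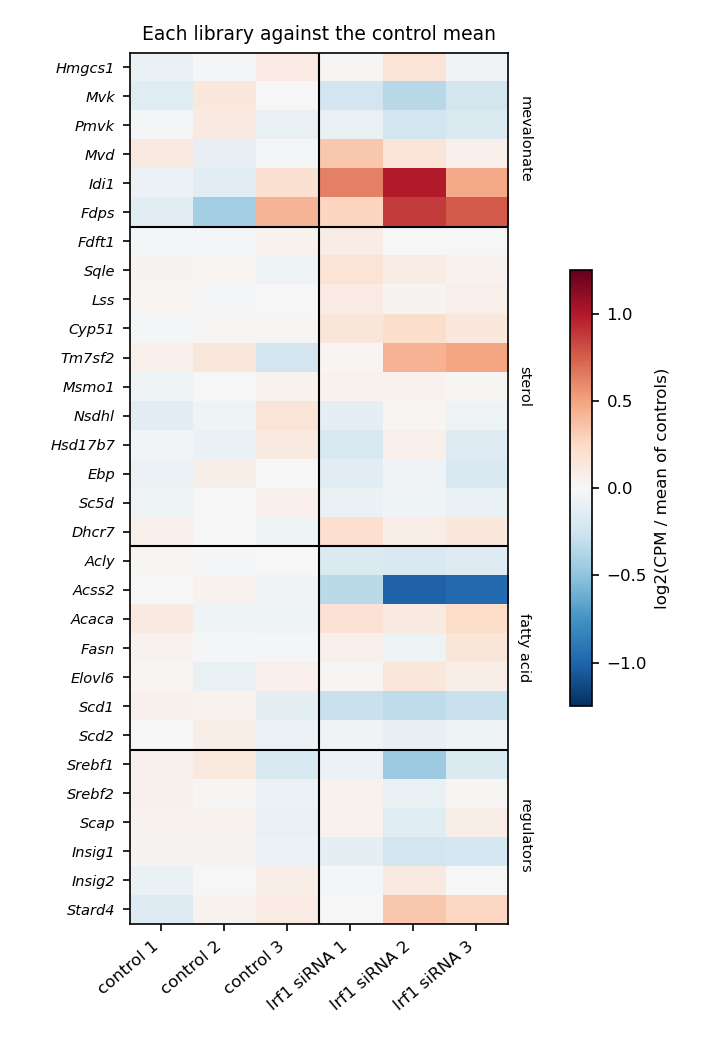
Log2 ratio of each library's CPM to the mean of the 3 controls (colour, red above and blue below) for the 30 genes in rows, by arm, and the 6 libraries in columns. Idi1 and Acss2 stand out in the Irf1 siRNA columns, and most rows of the sterol arm stay pale in all 6 libraries.

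Among the regulators only Insig1 passed the test (16.7% of them, against 22.4% of all tested genes). Insig1, itself an SREBP target that feeds back on SCAP, was at 61.5, 61.6 and 57.3 CPM in the controls and at 55.2, 51.4 and 51.7 CPM with Irf1 siRNA. The groups did not overlap, and its log2 fold change was -0.19 ± 0.06 (adjusted p = 0.0327). The call was lost without control replicate 1, control replicate 2, Irf1 siRNA replicate 2 or Irf1 siRNA replicate 3 (adjusted p up to 0.117), with DESeq2 (0.0521) and with upper-quartile factors (0.0614). Insig2 was at 0.03 (95% interval -0.10 to 0.17). The ratio of Insig1 to Insig2 was 0.921 ± 0.087 in the controls and 0.790 ± 0.067 with the siRNA (SD, n = 3, exact permutation p = 0.2).

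Srebf1 was at 246, 259 and 208 CPM in the controls and at 226, 174 and 209 CPM with Irf1 siRNA. The lowest control lay below 2 of the 3 knockdown libraries, and the log2 fold change of -0.23 (95% interval -0.45 to -0.005, adjusted p = 0.136) missed the threshold. Its unadjusted p by edgeR was under 0.05. The ratio of Srebf1 to Srebf2 was 1.38, 1.49 and 1.27 in the controls and 1.27, 1.07 and 1.21 with the siRNA, with the lowest control ratio (1.2735) just above the highest knockdown ratio (1.2726, exact permutation p = 0.1, adjusted 0.133). Srebf1 was called without control replicate 3 (-0.32, adjusted p = 0.0193) and without Irf1 siRNA replicate 1 (-0.31, 0.0479). Srebf2 (-0.01, -0.13 to 0.12) and Scap (-0.01, -0.15 to 0.14) had intervals close around 0. Stard4, which carries sterols between membranes, was at 69.6, 80.4 and 83.7 CPM against 78.3, 98.7 and 93.5 CPM (log2 fold change 0.21, 0.03 to 0.40, adjusted p = 0.099). Irf1 siRNA replicate 1 lay among the controls, and without it the adjusted p was 0.0104. In this arm edgeR called 0 higher, against 10.4% of all tested genes. At an unadjusted p under 0.05, 1 gene (Stard4) was higher, and DESeq2 called 0.

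Of the 22 members that did not pass the test, 16 had a 95% interval wholly within 0.3 of 0 on the log2 scale, a limit chosen with the values known. The furthest bounds were 0.65 for Tm7sf2 and -0.45 for Srebf1, so larger changes than these lay outside every interval of the 22. By arm, the median log2 fold change was 0.12 for the mevalonate genes, 0.03 for the sterol genes, -0.07 for the fatty acid genes and -0.01 for the regulators. No test compared the arms, since genes are not replicates of a condition.

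The machinery around the 30 genes was read from 4 further lists. In the first, 15 other genes of sterol and isoprenoid synthesis such as Ggps1, edgeR called 0 in either direction, against 22.4% of all tested genes. At an unadjusted p under 0.05, 1 was higher (Acat2, adjusted p = 0.083) and 0 were lower, and DESeq2 called 0. The second list held 14 genes of SREBP processing and sterol-regulated protein turnover, of which 2 rose and 2 fell (28.6% called, against 22.4% of all tested genes).

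Erlin2, an endoplasmic reticulum protein of the sterol-regulated degradation machinery, was at 47.7, 50.4 and 52.7 CPM in the controls and at 67.8, 77.7 and 77.8 CPM with Irf1 siRNA. The groups were far apart, and Erlin2 rose by 0.57 ± 0.07 on the log2 scale (adjusted p = 1.95e-05). The proteases that cut SREBPs in the Golgi moved in opposite directions. Mbtps1, the first to cut, was at 205, 206 and 197 CPM against 166, 155 and 169 CPM and fell by 0.31 ± 0.06 (adjusted p = 8.87e-04). Mbtps2, the second, was at 33.1, 32.9 and 32.4 CPM against 39.3, 41.8 and 39.1 CPM and rose by 0.29 ± 0.06 (adjusted p = 0.00373). Neither gene overlapped between groups. Their ratio, Mbtps1 over Mbtps2, was 6.19, 6.27 and 6.08 in the controls and 4.23, 3.71 and 4.31 with the siRNA (exact permutation p = 0.1, adjusted 0.133). With both genes already apart in opposite directions, the ratio had to be apart too, so this p adds nothing to their calls. Rnf145, a ubiquitin ligase of the sterol pathway, fell by 0.33 ± 0.06 (adjusted p = 8.91e-04). All 4 of these calls held with each library left out in turn.

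In the third list, 26 of 29 other genes of fatty acid synthesis, elongation and desaturation were tested, and 3 rose and 6 fell (34.6% called, against 22.4% of all tested genes). Fads3, a desaturase family gene, was at 337, 353 and 310 CPM against 253, 238 and 238 CPM and fell by 0.46 ± 0.06 (adjusted p = 6.07e-05). The dehydratases that serve elongation divided, with Hacd3 higher (0.42 ± 0.07, adjusted p = 2.56e-04) and Hacd2 lower (-0.44 ± 0.09, adjusted p = 0.0018). Mid1ip1, which promotes the polymer form of acetyl-CoA carboxylase, rose by 0.46 ± 0.08 (adjusted p = 5.7e-04). The remaining calls were Lpin1 (0.32) higher, and Slc25a1, the mitochondrial citrate carrier (-0.35), Hacd1 (-0.31), Elovl7 (-0.40) and Acacb (-0.71) lower. Elovl7 and Acacb each lost their call when control replicate 2, Irf1 siRNA replicate 1 or Irf1 siRNA replicate 3 was dropped, Elovl7 also with control replicate 3 dropped and Acacb also with control replicate 1 dropped.

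In the fourth list, 18 of 19 genes of sterol uptake, transport, esterification and efflux were tested, and 5 rose and 2 fell (38.9% called, against 22.4% of all tested genes). Lrpap1, a chaperone of lipoprotein receptors, was at 76.5, 82.3 and 75.3 CPM against 59.4, 54.8 and 56.2 CPM and fell by 0.46 ± 0.06 (adjusted p = 5.26e-05). Osbpl2, a sterol-binding transfer protein, rose by 0.50 ± 0.07 (adjusted p = 6.79e-05). Npc2, which hands cholesterol out of lysosomes, rose by 0.28 ± 0.06 (adjusted p = 0.00265). Mylip, a ligase that degrades lipoprotein receptors, fell by 0.38 ± 0.10 (adjusted p = 0.0105), but not with control replicate 1 dropped (0.0529). Abcg1 (0.60), Lrp8 (0.23) and Stard5 (0.20) also rose. Abcg1 lost its call with any control or Irf1 siRNA replicate 1 dropped, and Lrp8 and Stard5 lost theirs with control replicate 2 or Irf1 siRNA replicate 3 dropped, Stard5 also with control replicate 3 or Irf1 siRNA replicate 1 dropped. The number that rose was then 2 without control replicate 2, and 3 without control replicate 3, Irf1 siRNA replicate 1 or Irf1 siRNA replicate 3.

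**Figure D5:**
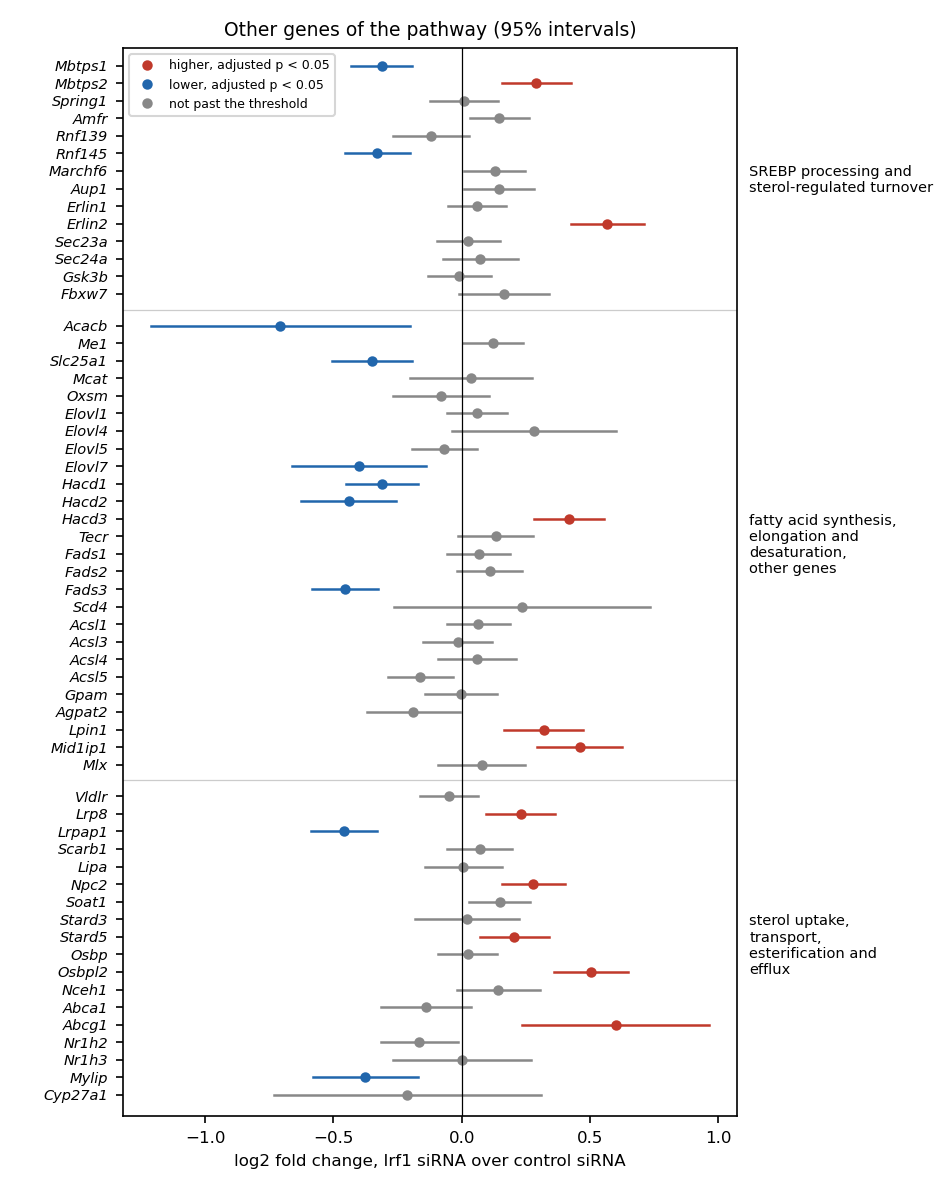
Log2 fold changes, Irf1 siRNA over control siRNA (points, 95% intervals as lines, n = 3 per group), of the tested genes of 3 further lists. Erlin2 and Mbtps2 rose and Mbtps1 and Rnf145 fell in the SREBP processing list, and the other lists also hold calls in both directions.

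Earlier work on these data had picked 4 words of 7 bases in 3′ UTRs because they went with falling genes, so their counts here are a description and not a test. The longest annotated 3′ UTR held at least 1 of the words in 2 of the 5 members that fell, 0 of the 3 that rose and 3 of the 22 others (Hsd17b7, Sc5d and Srebf1), against 21.1% of all tested genes with a 3′ UTR. In the 4 further lists it did so in 5 of the 10 genes that fell, 2 of the 10 that rose and 12 of the 53 others. The sites of the 2 members that fell, Acss2 and Scd1, are printed with the word in capitals, from GENCODE M21 transcripts (GRCm38), and the part of these words in the falls was not tested.
Acss2, chr2:155585437-155585465, plus strand: ccattttacctCTGATCAaaatgaatcgc
Scd1, chr19:44397413-44397441, minus strand: ttttctgaaatACTGATCcttcctcctga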

How the data were processed

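The authors deposited whole-number read counts per gene for 6 libraries (TruSeq Stranded mRNA, per the labels' protocols), and the submitters' processing notes name FastQC, Trimmomatic 0.39, STAR and the GRCm39 (mm39) build. For the counting tool, annotation release and strand setting, the entry is "not given in the sources used here". Counts of 3 siIRF1 and 3 siNC libraries were fitted over all genes with edgeR 4.0.16 in R 4.3.3 (TMM factors, filterByExpr, quasi-likelihood F test, group only). The 14683 tested genes held 99.91% to 99.93% of each library's counts. A call is a Benjamini-Hochberg adjusted p under 0.05 over all tested genes, two-sided, and the SE was taken as the absolute log2 fold change over the root of F. Within each group, the counts of every pair of libraries differed by more than sampling noise. The script was tested on simulated data. RPKM used GENCODE M21 exon lengths (GRCm38), matched by gene ID, so no coordinate of the authors' build was used. Shared sequence was searched with blastn 2.17.0 (at least 150 bases at 95% identity). Every member is named. Members past the threshold have a value for each library, and each further list names up to 4 called genes by adjusted p; the other names there were added after their values were seen. Members and lists were chosen with earlier results of these data known. Alternatives were RLE and upper-quartile factors, DESeq2 1.42.0, other filters, a replicate block, each library left out, and, chosen after seeing the data, control replicate 3 and Irf1 siRNA replicate 2 left out together.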

Additional observations from a re-analysis of the deposited data

How the results depend on the processing

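Idi1, Acss2 and Scd1 kept their calls under all alternatives run. RLE factors and the 1 CPM filter kept all 8 member calls, DESeq2 kept 7, and no filter gave 9 (Cyp51 lost, Srebf1 and Stard4 gained, 13.1% of 26800 genes called). Upper-quartile factors shifted the median of all genes by 0.03, exchanged Insig1 for Acaca, moved the sterol median to 0.06, gave 1 rise among the other sterol genes and reversed Srebf2 (0.018) and Scap (0.019), both uncalled. With control replicate 3 and Irf1 siRNA replicate 2 left out together, 7 members were called (Mvk and Cyp51 lost, Srebf1 gained), the sterol median was 0.069, 2 uptake and efflux genes rose and uncalled Scap was at 0.017.

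With each library left out in turn, 1 to 5 members rose and 2 to 6 fell. Over all genes 959 to 1398 rose (980 with control replicate 2 dropped, 959 with Irf1 siRNA replicate 3 dropped) and 1276 to 1716 fell. Among the other lists, 0 to 1 sterol genes rose, 2 to 3 SREBP processing genes rose, 3 to 4 fatty acid genes rose and 4 to 7 fell, and 2 to 5 uptake genes rose and 1 to 2 fell. Arm medians ran from 0.09 to 0.17 (mevalonate), 0.02 to 0.06 (sterol), -0.11 to -0.03 (fatty acid) and -0.05 to 0.01 (regulators). Uncalled members that changed sign were Hmgcs1 (-0.015 to 0.10), Nsdhl (-0.11 to 0.038), Fasn (-0.003 to 0.11), Srebf2 (-0.045 to 0.027), Scap (-0.057 to 0.063) and Insig2 (-0.013 to 0.075). The cause of these changes was not tested.

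The labels state no pairing of the libraries. Deviations from the group mean correlated at 0.41, -0.16 and 0.08 over 10458 genes between same-numbered libraries. Control replicate 3 correlated best with Irf1 siRNA replicate 2 (0.49). Deviations within a group of 3 constrain one another, so these values cannot decide whether the libraries were paired. A fit with the replicate block called 10 members, 5 of them higher (Acaca and Stard4 added), and 3728 genes in all. Depth was low for Fdps (48 to 115 counts per library) and Acss2 (76 to 185). In the further lists it was low for Acacb (21 to 73) and Abcg1 (53 to 76). DESeq2 called neither Acacb (adjusted p = 0.0693) nor Abcg1 (0.0534), and edgeR with upper-quartile factors did not call Acacb (0.0503).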

Other observations

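Control replicate 3 and Irf1 siRNA replicate 2, the libraries with the lowest cartilage marker sums, also shared a pattern among the 30 genes, noticed after seeing the data. In 9 members (30%) both libraries were the highest of their own group, against 18.9% of all tested genes. These were Hmgcs1, Idi1, Fdps, Nsdhl, Hsd17b7, Sc5d, Elovl6, Insig2 and Stard4. In 10 members (33.3%) both were the lowest of their group, against 18.6% of all tested genes: Pmvk, Dhcr7, Acss2, Acaca, Scd1, Scd2, Srebf1, Srebf2, Scap and Insig1. Genes of every arm stood on both sides. Among the regulators, Srebf1, Srebf2, Scap and Insig1 were lowest there, and Insig2 and Stard4 highest. In the mevalonate arm, Hmgcs1, Idi1 and Fdps were highest and Pmvk lowest. In the sterol arm, Nsdhl, Hsd17b7 and Sc5d were highest and Dhcr7 lowest, and most of its genes were neither. This pair of libraries also correlated best over 10458 genes (0.49), so the sharing was not confined to the 30. No test was made of the pattern.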
